A study of Onthophagus taurus with 96 samples.

Results

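The sex comparison of the thoracic horn in control pupae of the horned beetle *Onthophagus taurus* was examined, with 6 female and 6 male libraries of the 96 in the series. These 12 libraries were chosen by their labels alone, as every library of control animals whose tissue is the thoracic horn. The whole study crossed 2 injections, 2 sexes and 4 tissues (thoracic horns, head horns, brains and genitalia), and RNA of 6 pupae of each sex and injection was sequenced for each tissue. Beetles descended from animals collected in the field in Indiana and North Carolina and bred in the laboratory. Control larvae of the final instar, both female and male, had received 1 μg of a sham double-stranded RNA made from a cloning vector (pBluescript) in 3 μl, so that the controls were injected animals and not untouched ones. The knockdown animals used beside them (dsxRNAi) had received 0.5 μg of RNA that targets a stretch of *doublesex* (*dsx*) present in every isoform, also in 3 μl. All pupae were dissected within a day of pupation. The tissue taken was the dorsal side of the prothoracic segment, horn included, and therefore held more than horn epidermis. The methods describe 6 pupae of each sex and injection from which all 4 regions were sampled, so libraries of different tissues come, by that account, from the same animals. The labels number every library separately and do not link them by animal.

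Thoracic horns of this species are outgrowths of the dorsal prothorax that both sexes form as pupae and both sexes resorb before the adult emerges, in contrast to the head horns, which stay long in large males and are a low ridge in females. Sex in insects is read out by *dsx*, whose transcript is spliced into a male and a female form that encode transcription factors with a shared DNA-binding domain and different tails. An outgrowth of this kind is a folded epithelium that secretes cuticle on its outer face and rests on a basement membrane, a sheet built largely of collagen IV and laminin, on its inner face. Its size and shape are set by secreted signals such as Wnt, Hedgehog and Dpp ligands, by transcription factors that pattern appendages, and by the moulting hormone ecdysone.

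Depth was unequal between the sexes. From 7947734 to 13685987 reads per female library were counted on genes (median 10793824.5), and from 3615803 to 8729656 per male library (median 8278715). Of 17483 genes, 9012 had enough reads to be tested. Female library S37 stood apart, with 38.7% of its reads on its 10 most abundant genes against 20.6% to 30.1% in the other females and 19.2% to 26.2% in the males, and the gene lists are therefore given with and without it where it moved them. All markers of epidermis, muscle, glia, blood cells, fat body and trachea that matched a gene exceeded 3 reads summed over the 12 libraries. Of the neuron markers, *vglut* did not. So low a bar does not show which cell types the tissue held. The summed CPM of each of these 7 marker lists overlapped between the sexes. In bulk tissue, fewer cells of a type and less RNA per cell cannot be told apart.

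The *dsx* gene itself (OTAU004153, scaffold 241 of the *O. taurus* v0.5.3 gene models, 699490 to 703641) was measured in all 12 libraries. Normalised read counts relative to library size (CPM), scaled by the TMM method, which corrects for the composition of each library, were 14.8 at the lowest, 24.6 at the median and 31.1 at the highest in females, and 24.8, 27 and 33 in males. The sexes overlapped. Mean CPM was 4.68 lower in females (two-sided exact permutation test over 6 against 6 libraries, p = 0.195; the smallest p that this design allows is 0.00216). Counts per gene do not separate the male and the female isoform, so this total says nothing about splicing.

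Between the sexes of control animals, 32 genes were called with edgeR's quasi-likelihood test at a Benjamini-Hochberg adjusted p under 0.05, 20 higher in females and 12 higher in males. They made up 0.355% of the 9012 genes tested, 0.222% female-biased and 0.133% male-biased. At an unadjusted p under 0.05 there were 593 female-biased genes (6.58%) and 345 male-biased ones (3.83%). In each of the 32 called genes the 6 female values and the 6 male values did not overlap, a separation seen in 100 of the genes tested (1.11%), 0.621% with females above and 0.488% with males above. Of the 32, 13 female-biased and 7 male-biased genes differed by more than 2-fold, and log2 fold changes, always given as female minus male, ran from 0.62 to 4.22 in absolute size, leaving aside *f53c11.9*, for which only a bound is given, while the median over all genes tested was 0.01. The genes fell on 26 scaffolds and 17 of them carried the symbol of a gene of another species.

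**Figure D1:**
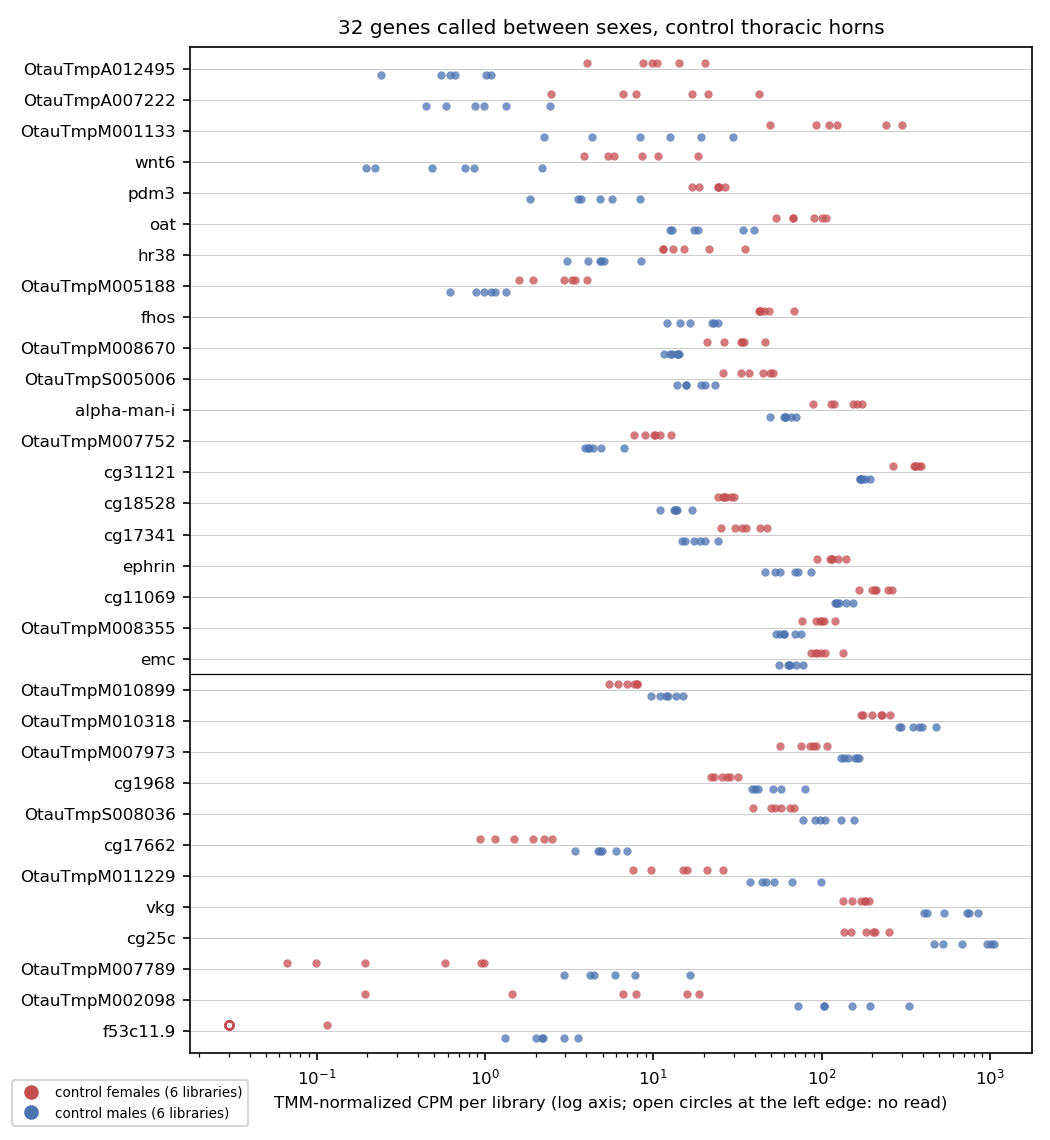
TMM-normalized CPM on a log axis of the 32 genes called between the sexes, with one point per control library (red, 6 females; blue, 6 males) and the open circle marking libraries with no read. The 20 female-biased genes stand above the line and the 12 male-biased ones below it, and in no gene do the colours overlap.

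How many genes pass depended on the test. DESeq2, the tool the study used, called 119 female-biased and 80 male-biased genes on the same libraries, 1.84% of those it gave an adjusted p, all 32 among them. With any library left out, edgeR called 7 to 33 female-biased and 3 to 18 male-biased genes, and 10 of the 32 passed in all 12 such fits: *cg25c*, *vkg*, *pdm3*, *cg18528*, *fhos*, *cg31121*, *alpha-man-i*, *f53c11.9*, OtauTmpM008670 and OtauTmpA012495. The other 22 passed in 1 to 7 of the 12 fits, and none of the 32 changed direction in any fit run.

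Collagen IV was higher in males in both of its chains. *cg25c* and *vkg* encode its α1 and α2 chains, which assemble into the network of the basement membrane. CPM of *cg25c* (OTAU000124, scaffold 5, 1731412 to 1744495, minus strand) was 136 at the lowest, 193 at the median and 250 at the highest in females and 468, 819 and 1054 in males. For *vkg* (OTAU000125, scaffold 5, 1757623 to 1770880, plus strand) it was 134, 176 and 191 in females and 405, 630 and 852 in males. The lowest male lay well above the highest female for each chain. The log2 fold change was -2.06 (SE 0.24, edgeR adjusted p = 0.00212) for *cg25c* and -1.87 (SE 0.20, edgeR adjusted p = 0.00101) for *vkg*. Per length of transcript, the median level in FPKM (counts relative to gene length and library size) was 19.1 in females and 94.5 in males for *cg25c* and 11.3 and 47.1 for *vkg*. The pair lay head to head, 13127 bp apart on opposite strands, as collagen IV genes also do in *Drosophila*. Of the nearest tested genes, *sens* on one side (0.43, unadjusted p = 0.164) and OtauTmpS000127 on the other (0.12, unadjusted p = 0.442) were not called. OtauTmpM000126, which overlaps *vkg*, had too few reads for the test, with medians of 0.182 CPM in females and 0.639 in males.

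In *Drosophila*, fat body and blood cells make much of the collagen IV found in the body. The summed CPM of 5 fat body markers ran from 3992 to 6014 in females and from 2851 to 7115 in males, and that of 5 blood cell markers from 638 to 4365 in females and from 757 to 2874 in males. Both sums overlapped between the sexes, and the part of either cell type in the collagen values was not tested. Of the 26 tested genes of the extracellular matrix and heparan sulfate list, the collagen chains were the called ones. The share called as male-biased was 0.133% over all genes, and the list median was -0.02. The laminin chain *lanb2* pointed the other way, with 114, 208 and 310 CPM in females and 33.8, 107 and 161 in males (lowest, median and highest), and was not called (log2 fold change 0.99, SE 0.32, edgeR adjusted p = 0.33).

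*wnt6*, which encodes a secreted Wnt ligand, was the signalling gene with the largest female bias. In females its CPM was 3.87, 7.24 and 18.4 (lowest, median and highest), or 20 to 159 reads a library, and in males 0.196, 0.623 and 2.17, or 1 to 17 reads. The log2 fold change was 3.45 (SE 0.56, edgeR adjusted p = 0.03), and the highest male, S45, reached 2.17. *wnt6* (OTAU002719) lies on scaffold 3 from 1604170 to 1611470. Without one of S38, S39, S43, S44, S46, S47 or S48 the adjusted p rose to between 0.0606 and 0.0871, with log2 fold changes of 3.10 to 3.47.

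Beside *wnt6* in insect genomes lies *wg*, the founding Wnt gene. Here *wg* (OTAU002716, scaffold 3, 1559934 to 1560497) had too few reads for the filter, with 0.58, 1.90 and 5.42 CPM in females and 0, 0.366 and 0.767 in males. Tested without the filter, its log2 fold change was 2.67 (edgeR adjusted p = 0.164). Its values and those of its neighbours OtauTmpM002714 and OtauTmpA002715, with 89 female against 9 male reads and 79 against 6, were looked at because they lie near *wnt6*. None of these 3 was called.

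Of the 16 tested genes of the Wnt pathway list, *wnt6* was called (beside 0.222% of all genes) and 2 were female-biased at an unadjusted p under 0.05 (beside 6.58%), or 4 of 17 without S37 (beside 5.02%), with a list median of 0.07. *dvl3*, a Dishevelled protein that relays the Wnt signal, was the other (92.7 to 115 CPM in females, 82.8 to 98.7 in males, log2 fold change 0.22, unadjusted p = 0.0102). In the Gene Ontology category of Wnt signalling, which the study assigned by homology and picked out by an enrichment test on these samples, so that it is no independent evidence, 26 genes matched, 18 were tested, *wnt6* was called and 5 were female-biased at an unadjusted p under 0.05, with a median of 0.14, beside the same shares of all genes. Its members OtauTmpM001743 (1.06, edgeR adjusted p = 0.103) and OtauTmpM001744 (0.73, edgeR adjusted p = 0.192), neighbours on scaffold 2, came next after *wnt6*.

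Transcription factors were among the female-biased genes. *pdm3* encodes a POU-domain factor known from neurons of *Drosophila*. Its CPM (OTAU002102, scaffold 183, 1828100 to 1833121) was 17, 24.3 and 26.7 in females and 1.85, 4.27 and 8.29 in males (lowest, median and highest). The log2 fold change was 2.27 (SE 0.28, edgeR adjusted p = 0.0036), and the lowest female stood above the highest male. Summed CPM of the neuron markers, at 447 to 574 in females and 442 to 580 in males, was nearly the same in both sexes.

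*hr38*, a nuclear receptor of the NR4A group that in *Drosophila* takes part in the ecdysone response, had 11.4, 14.2 and 35.0 CPM in females and 3.08, 4.86 and 8.47 in males. Its log2 fold change was 1.83 (SE 0.32, edgeR adjusted p = 0.0362). It was the called gene (beside 0.222% of all genes) among 26 tested genes of ecdysone synthesis and response, whose median was -0.01. *impe1*, named for its induction by ecdysone, was also higher in every female library (6.04 to 32.3 CPM) than in any male library (2.16 to 6.02) without being called (1.97, edgeR adjusted p = 0.0999). Such a separation, with females above, was seen in 0.621% of all genes tested.

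*emc*, an HLH protein that lacks a DNA-binding region and so blocks its partners, showed the smallest difference of the called genes. Females had 86.5, 96.1 and 134 CPM and males 56.1, 64.4 and 77.3, with a log2 fold change of 0.62 (SE 0.11, edgeR adjusted p = 0.0427). In *Drosophila*, *emc* also acts in the early count of X chromosomes. It was the called gene of the 7 tested in the sex determination list (median -0.07), beside 0.222% of all genes. The others tested were *dsx* (log2 fold change -0.26), *fru* (-0.25, unadjusted p = 0.155), *sxl* (-0.49, unadjusted p = 0.164), *nito* (-0.07), *fl(2)d* (-0.04) and *da* (0.06).

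Cell contact and the cytoskeleton were represented by *ephrin* and *fhos*. *ephrin*, the membrane-bound ligand of Eph receptors, had 93.6, 115 and 139 CPM in females and 45.9, 63.4 and 86.3 in males (log2 fold change 0.86, SE 0.15, edgeR adjusted p = 0.0362). It was the called gene of 24 tested for axon guidance (median -0.09), beside 0.222% of all genes. *fhos*, a formin that builds actin filaments, had 42.7, 44.3 and 69 CPM in females and 12.1, 19.4 and 24.1 in males (1.38, SE 0.19, edgeR adjusted p = 0.00895). Its highest female value came from S38, apart from the other 5.

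A further group concerned membrane transport, glycan processing and metabolism. *cg31121* and *cg11069* both encode ABC transporters of the G subfamily and lay head to head on scaffold 700 with 476 bp between them. *cg31121* had 267, 360 and 392 CPM in females and 169, 173 and 193 in males (0.99, SE 0.09, edgeR adjusted p = 0.000886), and *cg11069* 167, 210 and 262 against 121, 126 and 154 (0.72, SE 0.11, edgeR adjusted p = 0.0216). The male values of *cg31121* spanned a narrow range, and its lowest female, S42, stood below the other 5. Per length, the median level of *cg31121* was 86.3 FPKM in females and 50.6 in males.

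*alpha-man-i*, a Golgi mannosidase that trims N-linked glycans, had 88.6, 136 and 174 CPM in females and 49.7, 61.1 and 70.6 in males (1.14, SE 0.16, edgeR adjusted p = 0.00895). *cg1968*, annotated as subunit 6 of the COG complex that tethers vesicles at the Golgi, went the other way with 21.9, 26.6 and 32.1 CPM in females and 38.7, 46.8 and 80.0 in males (-0.96, SE 0.18, edgeR adjusted p = 0.0449). *oat*, the mitochondrial ornithine aminotransferase that links arginine and ornithine to proline and glutamate, had 53.7, 79.1 and 106 CPM in females and 12.6, 17.9 and 39.9 in males (1.85, SE 0.31, edgeR adjusted p = 0.0359). So 2 genes of the Golgi differed between the sexes in opposite directions.

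The widest male-biased folds belonged to genes for which no role is given here. *f53c11.9* (OTAU010520, scaffold 359, 164989 to 165393), named after a worm gene, had 9 to 30 reads in every male library and no read in 5 of the 6 females, with 1 read in S38. Male CPM was 1.31, 2.20 and 3.58. Against a floor of 3 reads per female library it was at least 8.51-fold higher in males (edgeR adjusted p = 0.000886). OtauTmpM002098 had 72.6, 128 and 332 CPM in males and 0.193, 7.26 and 18.6 in females (-4.22, SE 0.76, edgeR adjusted p = 0.0419).

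OtauTmpM007789 had 2.94, 5.17 and 16.5 CPM in males, the last in S46, and 0.0671, 0.385 and 0.99 in females, or 1 to 11 reads (-3.80, SE 0.64, edgeR adjusted p = 0.0359). OtauTmpM011229 had 37.8, 49.3 and 98.6 CPM in males and 7.54, 15.5 and 26 in females (-1.86, SE 0.32, edgeR adjusted p = 0.0362). The remaining male-biased genes were closer between the sexes. They were *cg17662* (-1.59), OtauTmpS008036 (-0.98), OtauTmpM007973 (-0.83), OtauTmpM010318 (-0.80) and OtauTmpM010899 (-0.79), with edgeR adjusted p from 0.03 to 0.0427.

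On the female side, OtauTmpA012495 (OTAU012495, scaffold 462, 32414 to 32878) had 4.07, 10.2 and 20.2 CPM in females and 0.241, 0.642 and 1.08 in males (3.99, SE 0.42, edgeR adjusted p = 0.00101). OtauTmpA007222 had 2.48, 12.5 and 42.4 against 0.446, 0.93 and 2.43, and OtauTmpM001133 49.3, 118 and 300 against 2.23, 10.4 and 29.9, with log2 fold changes of 3.83 and 3.58 (edgeR adjusted p = 0.04 and 0.0418). In the former the lowest female and the highest male nearly touched.

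OtauTmpM008670 had 20.9, 33.6 and 46 CPM in females and 11.6, 13.4 and 14.2 in males (1.30, SE 0.16, edgeR adjusted p = 0.00345). *cg18528* had 24.3, 26.7 and 30.2 in females and 10.9, 13.6 and 16.9 in males (0.99, SE 0.10, edgeR adjusted p = 0.00101). *cg18528* varied little within each sex, while the female values of OtauTmpM008670 were spread more widely than its male values. OtauTmpM005188, OtauTmpS005006, OtauTmpM007752, *cg17341* and OtauTmpM008355 completed the female-biased set, with log2 fold changes of 1.52, 1.16, 1.10, 0.96 and 0.66. OtauTmpM007752 and *cg17341* are adjacent on scaffold 217, 8067 bp apart on the same strand, so that 6 of the 32 called genes formed 3 pairs of neighbours.

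Overlapping gene models limit some of these values. For 8 of the 32 genes another model lies over part of the gene on the opposite strand: *vkg*, *ephrin*, *fhos*, *cg1968*, OtauTmpM001133, OtauTmpM002098, OtauTmpM007789 and OtauTmpM008355. The libraries kept strand, but the strand setting of the counting is not given in the sources used here, so reads of such partners may not be told apart. For *ephrin*, the partner *cg2747* had medians of 125 CPM in females and 128 in males (log2 fold change -0.03).

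Whether the same genes differ between the sexes once *dsx* is knocked down was asked in 12 other libraries, the thoracic horns of 6 dsxRNAi females and 6 dsxRNAi males. With CPM scaled over these and the control thoracic horns together, *dsx* ran from 4.651 to 15.81 in dsxRNAi females and from 1.535 to 14.32 in dsxRNAi males. Control females ran from 14.69 to 30.87 and control males from 24.75 to 32.89. The dsxRNAi female S25 (15.81) lay within the control female range. The highest dsxRNAi male, S31 (14.32), lay below every control male. The knockdown was thus partial and uneven between libraries. No gene of 9055 tested was called with edgeR's quasi-likelihood test (0.00%; 345 genes, 3.81%, at an unadjusted p under 0.05), and DESeq2 called 7 (0.0486%). The spread between libraries of a group relative to the mean, as edgeR estimated it over all genes, was 0.49 after dsxRNAi and 0.38 in controls. The number of genes called is therefore not on equal terms with the 32 called in controls. Of the 32 genes 29 were tested. The 20 female-biased ones had a median log2 fold change of 0.07, against 1.23 in controls, and 12 were positive and 8 negative. The 9 male-biased ones tested had a median of -0.51 against -0.98 in controls, and 8 were negative. Over all 12 male-biased genes the control median was -1.72. Left out by the filter on reads were *f53c11.9*, OtauTmpM007789 and *cg17662*. Their medians were 0.153, 0.807 and 0.974 CPM in dsxRNAi males, against 2.18, 5.14 and 4.87 in control males. The control libraries chose the 32 genes, so control and dsxRNAi medians stand side by side as a description. In 19 of the 29 the difference was under 0.5 in absolute size. The median over all genes tested was -0.01, but the share of all genes under 0.5 was not counted. The 19 are therefore not read as an effect of the knockdown.

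After dsxRNAi, some of the 29 genes kept a sex difference above 0.5 in absolute size, in either direction. Among them were *cg25c* (-0.80, SE 0.36), *vkg* (-0.85, SE 0.40) and *wnt6* (0.86, SE 0.62), in the direction of the controls. OtauTmpM005188 (-0.81, SE 0.55) went the other way. OtauTmpM008670, *cg18528* and OtauTmpM011229 stood out by the separation of their sexes. In these 3 of the 29 genes the dsxRNAi sexes did not overlap, as in 30 of all genes tested (0.331%). With CPM scaled over all 24 thoracic horn libraries, OtauTmpM008670 had 26.2, 33.6 and 68.4 in dsxRNAi females and 11.2, 14.7 and 16.3 in dsxRNAi males (lowest, median and highest; log2 fold change 1.5, SE 0.22, unadjusted p = 2.09e-05, edgeR adjusted p = 0.189). *cg18528* had 20.8, 27.4 and 38.2 against 12.1, 15.6 and 19.4 (0.91, SE 0.18, unadjusted p = 0.000246, edgeR adjusted p = 0.558). OtauTmpM011229 had 2.70, 11.5 and 19.2 against 32.8, 64.9 and 124 (-2.68, SE 0.48, unadjusted p = 0.000121, edgeR adjusted p = 0.548). Sex differences of these 3 were about as large as in controls. All 3 passed with DESeq2 (adjusted p from 8.54e-06 to 0.00632), and the same 3 and no other gene passed with edgeR when the 4 thoracic horn groups were fitted together (0.0314% of the genes tested, adjusted p from 0.00123 to 0.00944).

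In most of the 32 genes the dsxRNAi males, on their median, lay nearer to the control females than to the control males. This held for 14 of the 20 female-biased and 10 of the 12 male-biased genes on the log2 scale, and the dsxRNAi females lay nearer to the control females in 16 and 11. Over all genes tested, the dsxRNAi males lay nearer to the control females in 45.8% of those higher in control females and in 47.3% of those higher in control males, and the dsxRNAi females in 51.2% and 52.7%. The control medians come from the libraries that chose the 32 genes, so these counts are a description. For *pdm3* the medians were 24.1 CPM in control females, 4.25 in control males, 22.8 in dsxRNAi females and 19.2 in dsxRNAi males. For *oat* they were 78.6, 17.8, 65.4 and 69.3 in the same order, and for *fhos* 43.9, 19.4, 40.4 and 47. In *pdm3* and *oat* every control male lay below every library of the other groups. In *fhos* the control males (12.0 to 23.95 CPM) overlapped with the dsxRNAi males (21.4 to 66.4).

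Among the male-biased genes, *cg25c* had medians of 192 CPM in control females, 815 in control males, 188 in dsxRNAi females and 282 in dsxRNAi males. OtauTmpM002098 had 7.18, 127, 10.3 and 7.45. The dsxRNAi males were spread widely, from 145 to 662 CPM for *cg25c* and from 1.47 to 65 for OtauTmpM002098. *wnt6* lay between its control levels in both knockdown groups, with 4.47 CPM in dsxRNAi females (2.80 to 9.61) and 2.19 in dsxRNAi males (0.578 to 7.52), against 7.19 and 0.619 in control females and males.

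**Figure D2:**
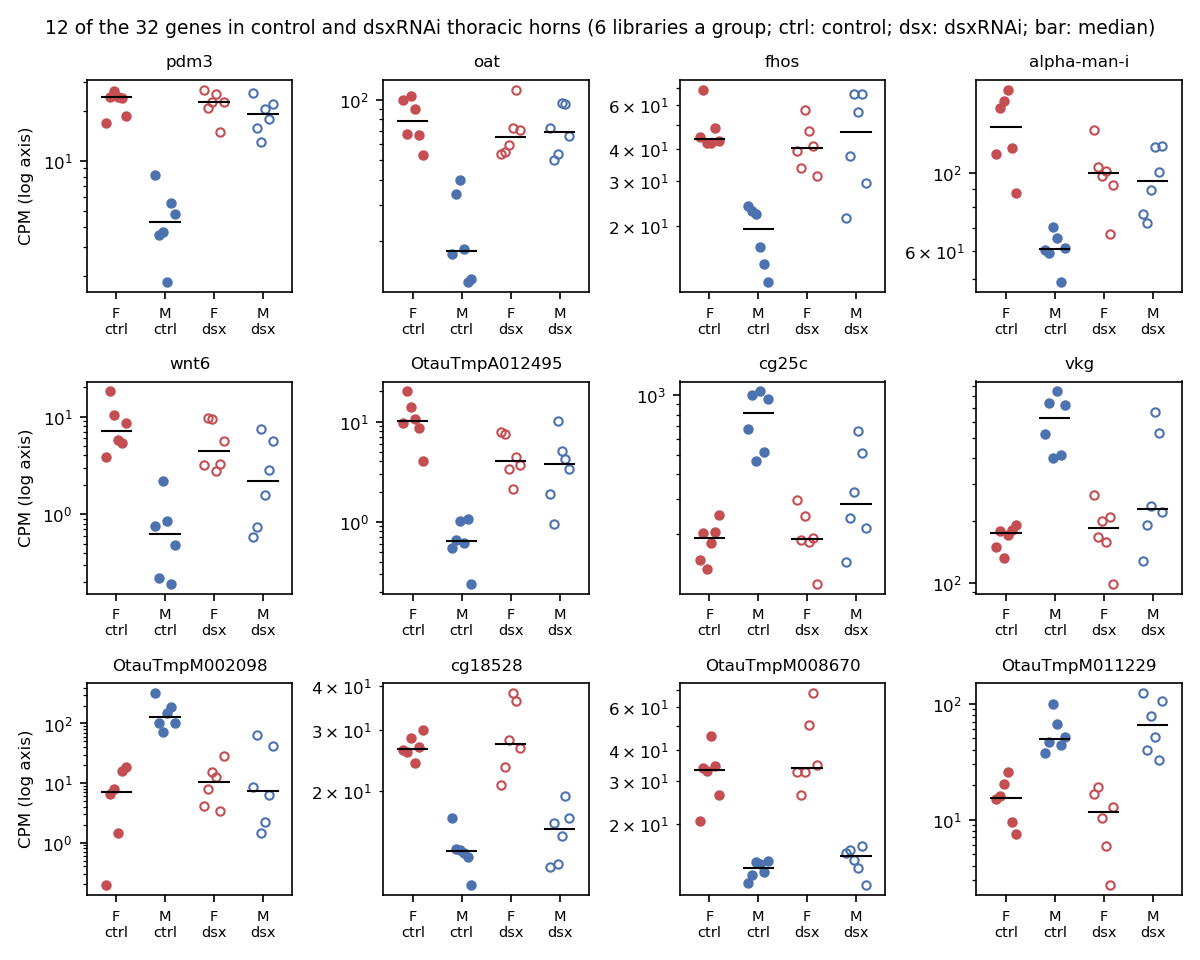
CPM on a log axis of 12 of the 32 genes in control (filled) and dsxRNAi (open) thoracic horns of females (red) and males (blue), 6 libraries a group, with a bar at the median. For pdm3 the control males, at a median of 4.25, lie below the other groups, at 19.2 to 24.1, while cg18528, OtauTmpM008670 and OtauTmpM011229 keep the sexes apart in both treatments.

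The difference between the control and the dsxRNAi sex difference was tested directly as an interaction over the 24 libraries, which include the 12 control libraries that chose the genes. *pdm3* passed, as the 1 gene of 9559 tested (0.0105%; 610, or 6.38%, at an unadjusted p under 0.05), with a difference of 2.04 on the log2 scale (SE 0.34, edgeR adjusted p = 0.0384). OtauTmpA012495 came next (3.80, SE 0.69, edgeR adjusted p = 0.0729). DESeq2 called 14 genes, and with any library left out edgeR called 0 to 2. Most of the fits with a library left out called no gene, so the call of *pdm3* was not stable.

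Comparing dsxRNAi with control animals within a sex called no gene with edgeR's quasi-likelihood test in males (0.00% of 9073; 6.59% at an unadjusted p under 0.05) or in females (0.00% of 8954; 2.23%). These comparisons share their control libraries with the sex comparison, so the values stand here side by side only. In males, the 19 female-biased genes tested had a median log2 fold change of 0.70 (dsxRNAi minus control) and the 12 male-biased ones -0.84. In females the medians were -0.33 over 20 and 0.23 over 10.

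Head horns, the other horn tissue, were sequenced in 12 further libraries, by the study's account from the same control pupae. Calls shared between tissues are therefore not independent, and no fit here pairs the libraries of an animal. There 595 of 9111 genes were called (6.53%), 294 higher in females (3.23%) and 301 higher in males (3.30%). Of the 32 thoracic genes 29 were tested, 26 had the same sign and 15 were called in the same direction, 9 female-biased and 6 male-biased. These are 46.9% of the thoracic calls and 2.52% of the head horn calls. The shared ones include *oat*, *cg18528*, *cg31121*, *alpha-man-i* and OtauTmpM008670 in females and *cg1968*, *cg17662* and OtauTmpM011229 in males. OtauTmpM001133 had a log2 fold change of 5.74 in head horns (SE 0.82, edgeR adjusted p = 0.00252), with medians of 230.0 CPM in females and 2.87 in males.

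*emc* was called in both horns in opposite directions. In head horns females had 102, 118 and 139 CPM and males 137, 151 and 162 (lowest, median and highest; -0.33, SE 0.08, edgeR adjusted p = 0.0368). The interaction of sex and tissue, which again uses the control libraries that chose the gene, gave a difference of 0.95 (SE 0.14, edgeR adjusted p = 0.00404). It called 13 of 9640 genes (0.135%), 10 of them with a positive difference (0.104%), and OtauTmpA012495 (3.76, SE 0.56, edgeR adjusted p = 0.00404) and *wnt6* (2.99, SE 0.57, edgeR adjusted p = 0.0306) were the other called members of the 32.

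In head horns *wnt6* had 16.5, 30.8 and 48 CPM in females and 18.1, 21.7 and 28.4 in males, and the sexes overlapped. These medians were above those of thoracic horns (7.24 in females, 0.623 in males), while the female ranges of head and thoracic horns overlapped. CPM was scaled within each tissue, and levels were not tested between tissues. OtauTmpA012495 had medians of 2.02 and 1.70 CPM in head horns. Of the genes outside the 32, OtauTmpS006503 (2.65), OtauTmpA002454 (2.1) and OtauTmpM008530 (2.20) had the lowest p in this interaction. OtauTmpA002454 was close between the sexes in thoracic horns (0.10) and male-biased in head horns (-2.01, edgeR adjusted p = 0.00317).

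The collagens were less separated in head horns. *cg25c* had 96.8, 582 and 1020 CPM in females and 799, 834 and 1289 in males (-0.74, edgeR adjusted p = 0.328), and *vkg* had medians of 382 and 581 (-0.78, edgeR adjusted p = 0.28). The sexes overlapped there. In genitalia, medians of *cg25c* were 1107 and 1058 CPM. The interaction with tissue did not call either collagen gene, so a different sex difference in the horns was not shown for them.

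In genitalia 1028 of 10014 genes were called (10.3%), 6.53% female-biased and 3.73% male-biased, and of 29 thoracic genes tested 5 were called in the same direction, which is 15.6% of the thoracic and 0.486% of the genital calls. They were OtauTmpM008670, *cg18528*, *fhos* and *hr38* in females and OtauTmpM010318 in males. The 10 male-biased genes tested had a median of 0.27 there, against -1.28 in thoracic horns. In brains, where 16 of 9980 genes were called (0.160%; 0.100% female-biased), OtauTmpM008670 (1.15, SE 0.11, edgeR adjusted p = 0.00145) and *cg18528* (0.90, SE 0.13, edgeR adjusted p = 0.0133) were the 2 of 26 tested. They were the genes of the 32 called as female-biased in every tissue.

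**Figure D3:**
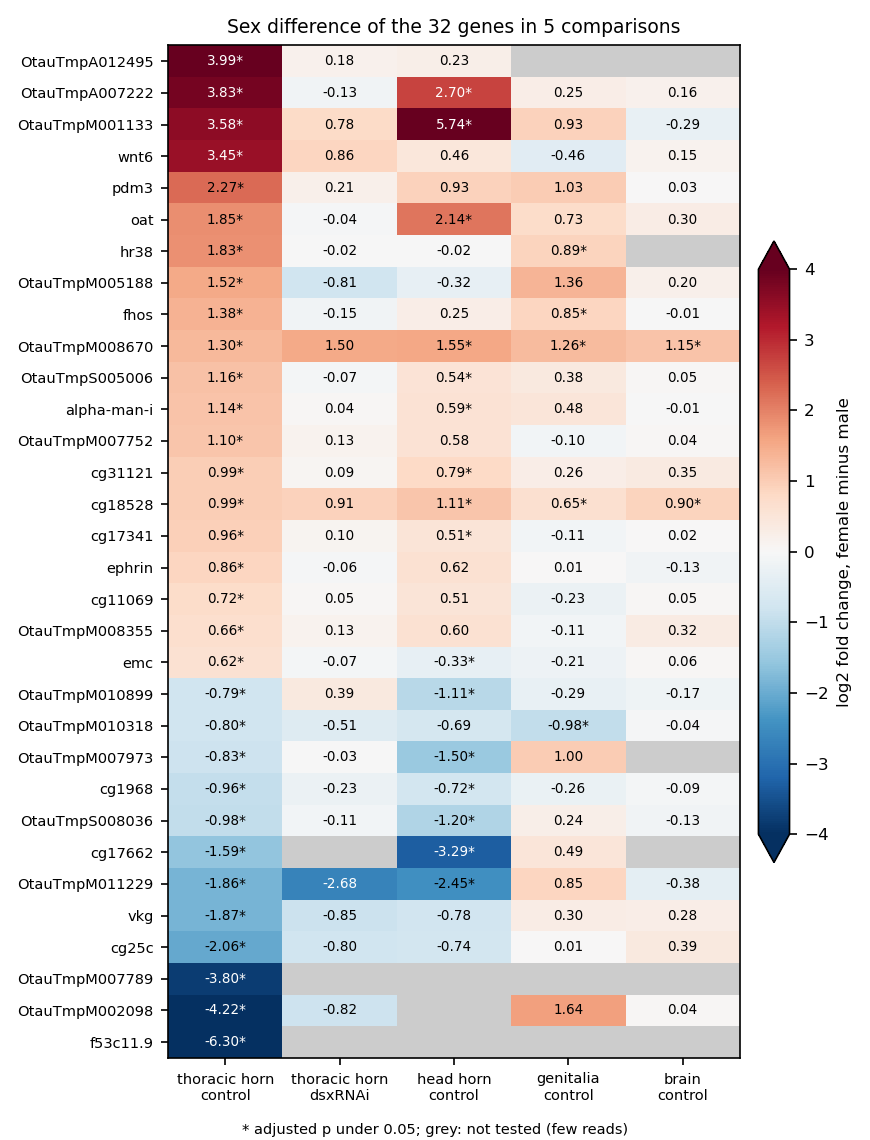
Log2 fold change, female minus male, of the 32 genes in control thoracic horns, dsxRNAi thoracic horns and control head horns, genitalia and brains (6 libraries a group; red, higher in females; blue, higher in males; star, adjusted p under 0.05; grey, not tested). Values shrink towards 0 in dsxRNAi thoracic horns for most genes, and OtauTmpM008670 and cg18528 are red in all 5 columns.

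Pathway lists showed few called genes. Besides the members already named, no gene was called in the lists for Hedgehog, Dpp, EGFR, Notch, Fat and Hippo, insulin, juvenile hormone, appendage patterning, cuticle, tanning, immunity, cell death, cell cycle, circadian clock, ribosomal proteins or heat shock, beside 0.355% of all genes. Where values for the lowest unadjusted p follow, none passed the adjusted test. *boi*, a receptor that binds Hedgehog, had 332, 538 and 770 CPM in females and 741, 983 and 1180 in males (-0.79, edgeR adjusted p = 0.165). *cv*, which in *Drosophila* helps carry Dpp-type ligands in wing crossveins, had 52.7 to 81.4 in females and 39.9 to 51.1 in males (0.53, edgeR adjusted p = 0.116).

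The appendage patterning list had 11 of its 12 tested genes positive (beside 4703 of all 9012) and a median of 0.31. Of these, 4 passed at an unadjusted p under 0.05 (beside 6.58% of all genes). Without S37 the median was 0.25 and 2 genes passed that level (beside 5.02% of all genes). *salm*, the spalt-type zinc finger protein that patterns the fly wing, had 45.8, 61.7 and 109 CPM in females and 7.65, 20.1 and 37.7 in males, with no overlap (1.72, SE 0.38, edgeR adjusted p = 0.103). Every female lay above every male in 0.621% of all genes tested. *ara*, an Iroquois homeobox gene, had 4.83 to 18.6 in females and 1.85 to 9.60 in males (1.00, edgeR adjusted p = 0.399). In head horns 7 of 14 tested genes of this list were called, all in females (beside 3.23% of all genes there), with a median of 0.96.

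Medians of the lists other than appendage patterning, cuticle, tanning and glia markers lay between -0.31 and 0.27. *arntl*, the counterpart of the fly clock gene Cycle, differed widely between the libraries, with 97.1, 507 and 792 CPM in females and 1.34, 11.5 and 93.5 in males (4.08, SE 1.03, edgeR adjusted p = 0.176), and it was called in head horns (7.98, edgeR adjusted p = 0.0015). Of 36 genes of the cell cycle and DNA replication 35 were lower in females, with a median of -0.31 that moved to -0.16 without S37. Of 70 cytosolic ribosomal protein genes 60 were lower in females, by a median of -0.08 with and without S37. Over all genes tested, 4309 of 9012 were lower in females. The summed CPM of each of these lists overlapped between the sexes, and the counts were not tested. The ribosomal median was also -0.08 in head horns and -0.13 in dsxRNAi thoracic horns.

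**Figure D4:**
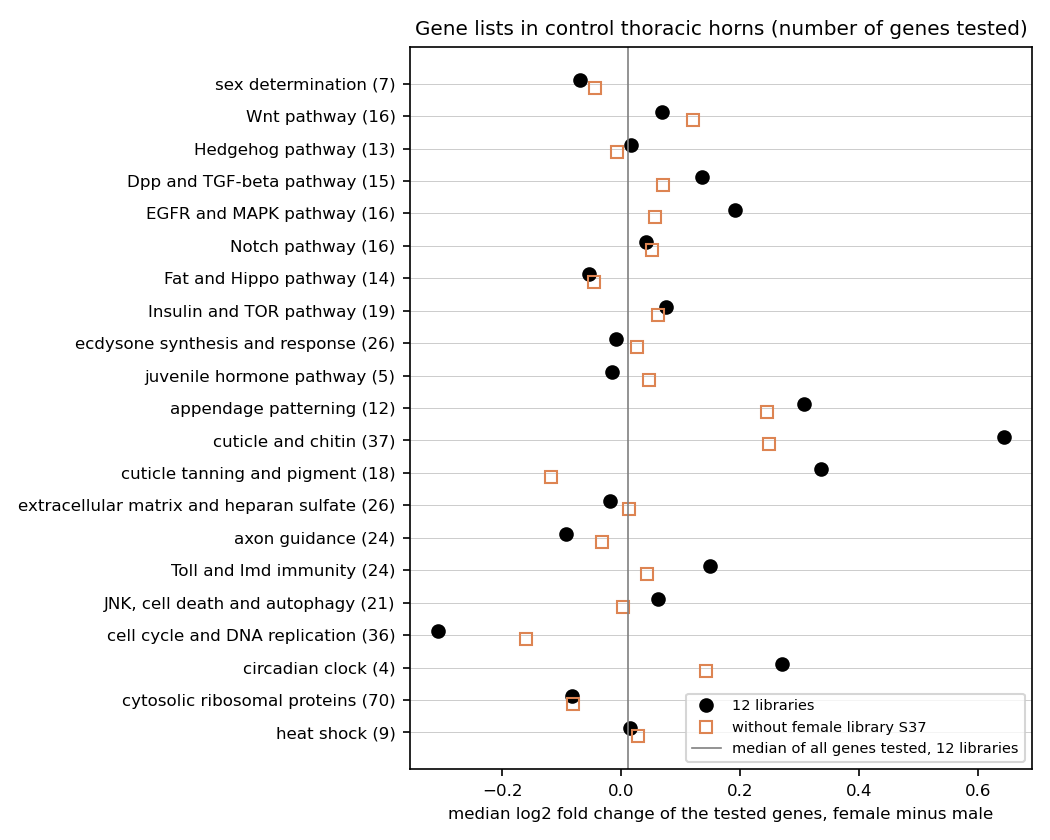
Median log2 fold change, female minus male, of the tested genes of each list with at least 4 tested genes (number in brackets), over 12 libraries (filled circles) and without female library S37 (open squares), with a line at the median of all genes. The cuticle and chitin list moves from 0.64 to 0.25 and the tanning list from 0.34 to -0.12.

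Library S37 moved 3 lists most when it was left out: glia markers, tanning and cuticle. The 4 tested glia markers had a median of 0.83 with it and -0.02 without it. Among 37 tested genes of the cuticle and chitin list the median was 0.64, with 12 female-biased and 2 male-biased at an unadjusted p under 0.05 (beside 6.58% and 3.83% of all genes). Without S37 the median was 0.25, with 5 and 2, beside 5.02% and 4.22% of all genes. The genes that follow were picked out after their values in S37 had been seen. *kkv*, the chitin synthase of the epidermis, reached 5016 CPM in S37, against 203 to 1092 in the other females and 186 to 714 in males. *cpr100a*, a chitin-binding cuticle protein, reached 12195 in S37, against 87.2 to 673 and 73.1 to 565. *ple*, the tyrosine hydroxylase that starts cuticle tanning, reached 4303, against 176 to 1087 and 33 to 561.

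Several tanning genes followed the same library. For the 18 tested genes of tanning and pigment the median was 0.34 with S37 and -0.12 without it. *yellow-e* had 499 CPM in S37, with 0.671 to 20.5 in the other females and 0.241 to 4.35 in males. *b*, which makes the β-alanine used in tanning, had 1063 in S37, with 3.97 to 27.4 and 4.09 to 41.4. The summed CPM of the epidermis markers, *kkv* among them, was 8042 in S37 and 2527 to 4239 in the other females, beside 2906 to 3481 in males. Its part in the cuticle values was not tested.

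Against this trend, 3 genes of these lists were higher in every male than in any female, as were 0.488% of all genes tested. *yellow-c* had 1439, 2891 and 3736 CPM in females and 4535, 5794 and 7577 in males (-1.12, edgeR adjusted p = 0.118). *yellow-f*, which in *Drosophila* converts dopachrome during melanin formation, had 92.1, 255 and 280 against 370.0, 451 and 594 (-1.0, edgeR adjusted p = 0.126), and *osi7*, of the Osiris family of insect genes, 0.774, 7.27 and 11.3 against 13.9, 22.8 and 40.6 (-1.91, edgeR adjusted p = 0.118). In *yellow-f* and *osi7* S37 was the lowest female. Without it both passed (-0.84, adjusted p = 0.0219, and -1.70, adjusted p = 0.0334, edgeR's quasi-likelihood test), in a fit chosen after the data had been seen that called 29 female-biased and 18 male-biased genes, 29 of the 32 among them.

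**Figure D5:**
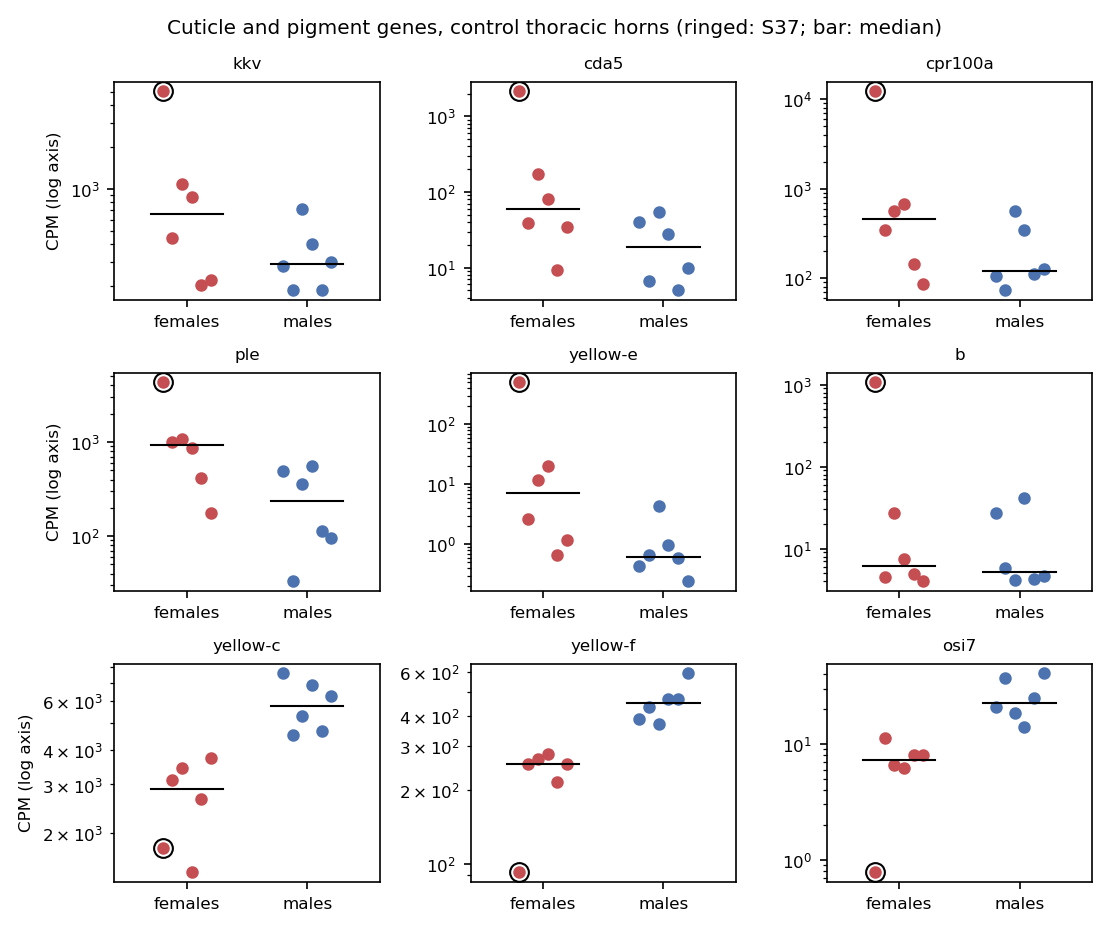
CPM on a log axis of 9 cuticle and pigment genes in control thoracic horns of females (red) and males (blue), 6 libraries each, with a bar at the median and library S37 ringed. S37 is the highest library for kkv, cda5, cpr100a, ple, yellow-e and b, and yellow-c, yellow-f and osi7 are higher in each male than in each female.

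Marker lists of other cell types gave no called gene in control thoracic horns. Summed CPM of muscle markers ran from 989 to 9535 in females (median 1328) and from 1347 to 5668 in males (median 4013). That of trachea markers ran from 365 to 569 (median 540) and from 434 to 648 (median 557). For glia markers it ran from 102 to 351, the last in S37 (median 134), and from 111 to 163 (median 126). Muscle RNA thus varied widely among the libraries of each sex. The part of muscle, glia and trachea in the sex differences was not tested.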

How the data were processed

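RNA of dorsal prothoracic tissue from 12 control pupae, 6 of each sex, was compared, with other groups of the series beside it. The authors trimmed single-end reads of strand-specific libraries with Trimmomatic 0.32, aligned them with TopHat2 2.1.0 to the *O. taurus* v0.5.3 gene models and counted reads per gene with HTSeq 0.6.1p1. They deposited raw counts of 17483 genes. FPKM values that the authors computed with DESeq2 were deposited as well. They carry the scaffold positions and were used here only for levels between genes. The strand setting of the counting is not given in the sources used here.

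The main test was edgeR's quasi-likelihood test (edgeR 4.0.16, R 4.3.3, TMM factors, edgeR's default filter by group, robust dispersion), run on the counts within the groups compared, with Benjamini-Hochberg adjustment over all genes tested and a threshold of 0.05. The interactions used 24 libraries each, with no term for the animal. The *dsx* level was compared by a two-sided exact permutation test over 924 arrangements. Levels of 3 reads or fewer per library were taken as the floor, which covers counting error only. Alternatives were DESeq2 1.42.0, its size factors in edgeR, no filter, all 4 thoracic horn groups in one fit, limma 3.58.1 voom with sample weights, and each library left out. Python 3.11.15 with pandas 2.3.3, scipy 1.17.1 and matplotlib 3.10.9 made summaries and plots. The fits were tested on simulated counts with less spread between libraries than these data. That test therefore does not give their error rates here.

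Named were all genes called in the main comparison, *dsx* and the sex determination list, called members of each gene list or, with none called, the 2 with the lowest unadjusted p, and the 5 called genes of lowest p in each interaction. *lanb2*, *impe1*, *dvl3*, *wg*, OtauTmpM001743, OtauTmpM001744 and neighbours of called genes were added after their values had been seen. The 6 values of a group are given as lowest, median and highest. Lists were matched by symbol, which 19 names share among 38 genes. Comparison, lists and tests were chosen with earlier results of these data known. Whether libraries of a group were prepared in batches is not given, the pupae are separate animals, and no 2 libraries were identical.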

Additional observations from a re-analysis of the deposited data

Results flagged for a closer look

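In 14 of 126 groups of 6 libraries, 1 library lay farther from its neighbours than Dixon's critical value for 6 samples allows, and chance alone gives about 1 in 20. Of 66 groups of single genes 6 were of this kind. *f53c11.9* had 0.115 CPM in female S38 and none in the other females, *fhos* 69 in female S38, and *cg31121* 267 in female S42, the lowest. Among males, OtauTmpM007789 had 16.5 CPM in S46, OtauTmpM007752 6.75 in S48 and *wnt6* 2.17 in S45, each the highest.

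Summed CPM of gene lists gave 8 such groups of 60, and 6 of them came from female S37. It was highest for the insulin and TOR list (1131), cuticle tanning and pigment (15385), cell death and JNK (1569), epidermis markers (8042) and glia markers (351), and lowest for juvenile hormone genes (122). The Hox list was highest in male S48 (16.3), and the trachea markers were lowest in female S42 (365).

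Sex differences that differed between treatments or between horns, by the interaction in edgeR's quasi-likelihood test, were found for 1 and 13 genes. In *pdm3* the sex difference on the log2 scale was larger in control than in dsxRNAi thoracic horns by 2.04. Between thoracic and head horns, the difference of the female-minus-male log2 fold changes was positive for OtauTmpM012337 (4.89), OtauTmpA012495 (3.76), *wnt6* (2.99), OtauTmpS006503 (2.65), OtauTmpM008530 (2.20), OtauTmpA002454 (2.1), *ab* (1.5), *eip55e* (1.08), *emc* (0.95) and *slh* (0.57). It was negative for *boi* (-1.43), OtauTmpM000925 (-1.07) and OtauTmpM016933 (-2.02). For *ab*, known in *Drosophila* as the BTB zinc finger gene *abrupt*, males were higher in head horns (-2.07, edgeR adjusted p = 2.14e-05) while the thoracic value was -0.56 (edgeR adjusted p = 0.422).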

How the results depend on the processing

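Counts of female-biased and male-biased genes, 20 and 12, became 119 and 80 with DESeq2, 50 and 27 with limma voom and sample weights, 10 and 5 with all 4 thoracic horn groups in one fit, 17 and 10 without the filter, and 20 and 12 with DESeq2's size factors. Without one library they ran from 7 to 33 and from 3 to 18: 29 and 18 without female S37, 7 and 3 without S38, 7 and 3 without S39, 11 and 6 without S40, 13 and 5 without S41, 33 and 12 without S42, and for males 8 and 3 without S43, 12 and 4 without S44, 13 and 8 without S45, 8 and 3 without S46, 7 and 3 without S47, and 10 and 3 without S48. Of the 32 genes, 32 were still called with DESeq2 and with its size factors, 27 without the filter, 29 with voom, 14 with 4 groups and 10 to 30 with one library left out. No direction reversed, and the largest adjusted p was 0.568, for *emc* with 4 groups.

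The 0 genes differing after dsxRNAi became 7 with DESeq2, 3 with 4 groups and 2 with voom, and stayed 0 with any library left out. The interaction with treatment went from 1 to 14 with DESeq2 and ran from 0 to 2, mostly 0, with a library left out. That with tissue went from 13 to 94 and ran from 6 to 17. Genes shared with head horns went from 15 to 93 with DESeq2 and those shared with genitalia from 5 to 64. The mean *dsx* difference, -4.68 CPM, ran from -2.98 to -6.25 with a library left out and was -8.32 without TMM factors (exact permutation p = 0.0563). Without S37 the list medians moved most for glia markers (0.83 to -0.02), tanning (0.34 to -0.12) and cuticle (0.64 to 0.25). No paired analysis was possible because the female libraries, 37 to 42, and the male libraries, 43 to 48, share no replicate number. Male libraries were shallower, so a gene near the filter rests on fewer reads in males.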

Other observations

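Library S37 drew its most abundant transcripts largely from genes with no symbol. OtauTmpM007152 held 6.5% of its reads, against 0.117% to 2.36% in the other 11 libraries, and OtauTmpM009225 held 5.86%, against 0.284% to 2.73%. The cuticle protein gene *cpr72eb* held 4.50%, against 0.413% to 3.04%. OtauTmpM007998 behaved otherwise, with 2.13% in S37 and 1.18% to 2.93% in the other females, but 0.00149% in male S44 and 0.00337% in male S48. OtauTmpM001108 was low in the same males, at 0.0226% and 0.0685%, against 0.923% to 2.22% in the other 4 males.

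No gene of the insulin, Fat and Hippo, immunity or Dpp lists was called between the sexes of control thoracic horns with edgeR's quasi-likelihood test, and the values of 5 members follow. *thor*, the translation repressor 4E-BP, had 31.1, 44.5 and 46.6 CPM in females and 14.8, 26.3 and 44.1 in males (lowest, median and highest; log2 fold change 0.60, edgeR adjusted p = 0.383), and *chico*, the insulin receptor substrate, 70.1 to 196 and 56.5 to 87.7 (0.63, edgeR adjusted p = 0.357). *ds*, a giant cadherin that binds Fat, had 77.5, 196 and 212 CPM in females and 196, 244 and 365 in males (-0.62, edgeR adjusted p = 0.399). *spz*, the ligand of Toll, had 29 to 83.5 in females and 20.1 to 36.1 in males (0.74, edgeR adjusted p = 0.236), and was called in head horns in the same direction (0.60, edgeR adjusted p = 0.00785). Of the growth factors, *dpp* had 17.3, 25.4 and 36.5 CPM in females and 6.39, 16.0 and 20.7 in males (0.80, edgeR adjusted p = 0.346).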
